A study of Mus musculus with 2 samples.

Results

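The cytosolic ribosomal protein genes encode the proteins of the ribosomes outside the mitochondria. They were taken here as the gene symbols that begin with Rpl or Rps and a number, together with Rplp0, Rplp1, Rplp2 and Rpsa. Symbols of pseudogenes were left out, and a gene needed at least 500 UMIs (unique molecular identifiers, each of which stands for 1 captured mRNA molecule) over all barcodes. Of 90 symbols of that form, 83 met the minimum, 49 of the large and 34 of the small subunit, out of 55487 symbols in the files. Rps4l, with 629 UMIs, and Rps3a2, with 1453, were the lowest members kept, and Rpl6l, with 277, was the highest of the 7 left out. The 83 members held 28097410 of 174231251 UMIs, or 16.1%, and a cell carried UMIs of 75.1 members on average. The study set CD45+ immune cells from the cecum, the blind pouch at the start of the large intestine, of 2 Trpv1-ADC mice against those of 2 CTRL littermates, to ask what activation of Trpv1+ neurons, the pain-sensing neurons with the capsaicin-gated channel, does to them. All 4 were males of 101 days that, per the labels, had received an AAV intraperitoneally as newborns and 7 injections of CNO, a ligand of designer receptors, on alternate days. Their strain entry reads "Trpv1-WT.B6 & Trpv1-Cre.B6" for all 4 alike and does not tell which mouse carried Cre, so a strain difference cannot be told apart from the group. The mice carried hashtags 7 and 9 (Trpv1-ADC 1 and 2) and 1 and 3 (CTRL 1 and 2) on CD45 in 1 droplet run, and by its title the study asked about neuronal control of regulatory T cells. Both groups were sorted and sequenced together, and the labels do not say which receptor the virus carried or in which neurons.

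Ribosomal proteins are made in near-equal numbers, since each ribosome holds a single copy of nearly all of them, and only the P-stalk proteins Rplp1 and Rplp2 are present as pairs. Their mRNAs begin with a cytosine and a run of pyrimidines, the 5′ terminal oligopyrimidine tract, through which the kinase mTORC1 and the RNA-binding protein Larp1 set how strongly they are translated. Resting lymphocytes hold small amounts of RNA per cell, and an activated lymphocyte makes many more ribosomes. A few members have a second, related gene with its own expression pattern, and these pairs are described below.

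Pyrimidine runs near the start of transcription were looked for in the RefSeq promoter table (GRCm38.p6), which held 61 of the 83 members. Within 25 bases on either side of an annotated start, 32 of the 61 (52.5%) had a run of at least 8 pyrimidines. The share was 22.3% of all 27025 genes in the table, 24.6% of the 69 mitochondrial ribosomal protein genes and 58.8% of 17 listed genes for translation factors and other mRNAs known for such a tract. Over the whole promoter, from 250 bases before to 50 after the start, the letters CCGGAAG, bound by ETS factors, stood on either strand in 41.0% of the members, 37.7% of mitochondrial ribosomal protein genes and 9.93% of all genes. The letters AAGATGGC, bound by YY1, stood on either strand in 9.84% of the members, 17.4% of mitochondrial ribosomal protein genes and 3.19% of all genes. The members below are those whose values recur in the results. Capitals mark the longest pyrimidine run in the 50 bases around the start, or the first where runs tie in length.
Rps6 (chr4:86857343-86857392, minus strand): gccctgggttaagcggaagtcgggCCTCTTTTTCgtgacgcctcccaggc
Rps10 (chr17:27635220-27635269, minus strand): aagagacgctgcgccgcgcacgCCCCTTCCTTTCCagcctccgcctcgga
Rplp0 (chr5:115559442-115559491, plus strand): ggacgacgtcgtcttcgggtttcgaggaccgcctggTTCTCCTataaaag
Rplp2 (chr7:141447626-141447675, plus strand): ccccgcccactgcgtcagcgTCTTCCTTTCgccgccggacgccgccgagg
Rpsa (chr9:120127741-120127790, plus strand): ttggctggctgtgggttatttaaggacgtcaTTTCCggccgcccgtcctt
Rpl12 (chr2:32961687-32961736, plus strand): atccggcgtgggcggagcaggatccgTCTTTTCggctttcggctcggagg
Rps27 (chr3:90213624-90213673, minus strand): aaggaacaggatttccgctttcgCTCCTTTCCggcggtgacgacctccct
Rps27l (chr9:66946061-66946110, plus strand): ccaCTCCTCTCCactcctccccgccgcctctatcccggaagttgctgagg
Rpl36a (chrX:134585629-134585678, plus strand): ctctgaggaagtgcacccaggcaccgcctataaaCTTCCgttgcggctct
Rpl36al (chr12:69184043-69184092, minus strand): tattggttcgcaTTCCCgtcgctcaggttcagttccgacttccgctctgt
Rps10 and Rps6 carry runs of 13 and 10 bases across the annotated start, while Rpl36a and Rpl36al show runs of 5 bases. Rps27 and Rps27l each have a run of 9. In Rps27 it spans the annotated start, and in Rps27l the marked run lies at the upstream edge of the window. A second Rps27l run of 9 bases follows the marked one and ends just before the annotated start. A match is a description of the letters and not of a working site.

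After filtering, 17519 cells remained: 4430 and 4531 of the Trpv1-ADC mice and 4393 and 4165 of the CTRL mice, with 27586172 to 29905834 UMIs per mouse and a median of 5553 to 5689 UMIs per cell. Mitochondrial UMIs stood at 2.52% to 2.65% in the 4 mice. Cells were clustered without the ribosomal protein genes among the variable genes. The members still counted in the total to which each cell was scaled and in the doublet calls. Of 28 classes, 25 could be named from markers and 18 had at least 20 cells in every mouse. Fibroblast-like and endothelial cell-like cells were among them although the sort was for CD45: Ptprc, the gene of CD45, had UMIs in 70.5% of fibroblast-like and 60.3% of endothelial cell-like cells (mean 352 and 385 CPM) and in 89.5% to 100% of the cells of the other 16 classes compared (703 to 2280 CPM). How much of it is free RNA or attached cells was not tested. The replicate throughout is the mouse (n = 2 per group). All 23063 barcodes of the gene expression library are also in the hashtag library, since both were read from the same droplets.

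The ribosomal protein share of the UMIs differed between cell classes by more than it differed between mice. It was highest in naive CD8 T cell-like cells, which had 23.5% and 22.4% in Trpv1-ADC mice and 23.6% and 23.6% in CTRL mice, a mean of 23.3% ± 0.58 (SD, n = 4). Naive CD4 T cell-like cells (21.0% ± 0.42) and memory CD8 T cell-like cells (21.0% ± 0.43) came next, and their ranges over the 4 mice overlapped each other but not those of the other 16 classes compared. The lowest of the 18 were fibroblast-like (11.0% ± 0.61), macrophage-like (11.1% ± 1.74) and monocyte-like cells (11.4% ± 0.80). Highest and lowest class differed 2.12-fold, and the SD over the 18 class means was 3.71 percentage points against a median SD over mice of 0.594.

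Dendritic, dividing and type 2 innate lymphoid cells came between. Conventional dendritic cell type 1-like cells, which cross-present antigen, stood at 17.1% ± 0.38, cycling cell-like cells at 17.0% ± 1.56, ILC2-like cells at 16.6% ± 1.18 and conventional dendritic cell type 2-like cells at 16.5% ± 0.23. B cell-like cells followed at 15.6% ± 0.26 and effector CD4 T cell-like cells at 14.8% ± 0.26. The T cells with an activated or tissue-resident profile were lower than the naive ones: intraepithelial-type T cell-like cells had 13.5% ± 0.28, follicular helper CD4 T cell-like cells 13.0% ± 0.73 and regulatory T cell-like cells, which hold back immune responses, 12.4% ± 0.89. NK cell or ILC1-like cells (12.9% ± 0.44), ILC3-like cells (12.0% ± 0.95) and endothelial cell-like cells (11.9% ± 1.36) lay close to them. Of the 17 pairs of neighbours in this order, 5 had ranges that did not overlap over the 4 mice, so that most neighbours did not differ beyond the spread between mice. Depth did not run with the order: over the 18 classes, the correlation of the class share with the median number of UMIs per cell was r = 0.07, given as a description.

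**Figure D1:**
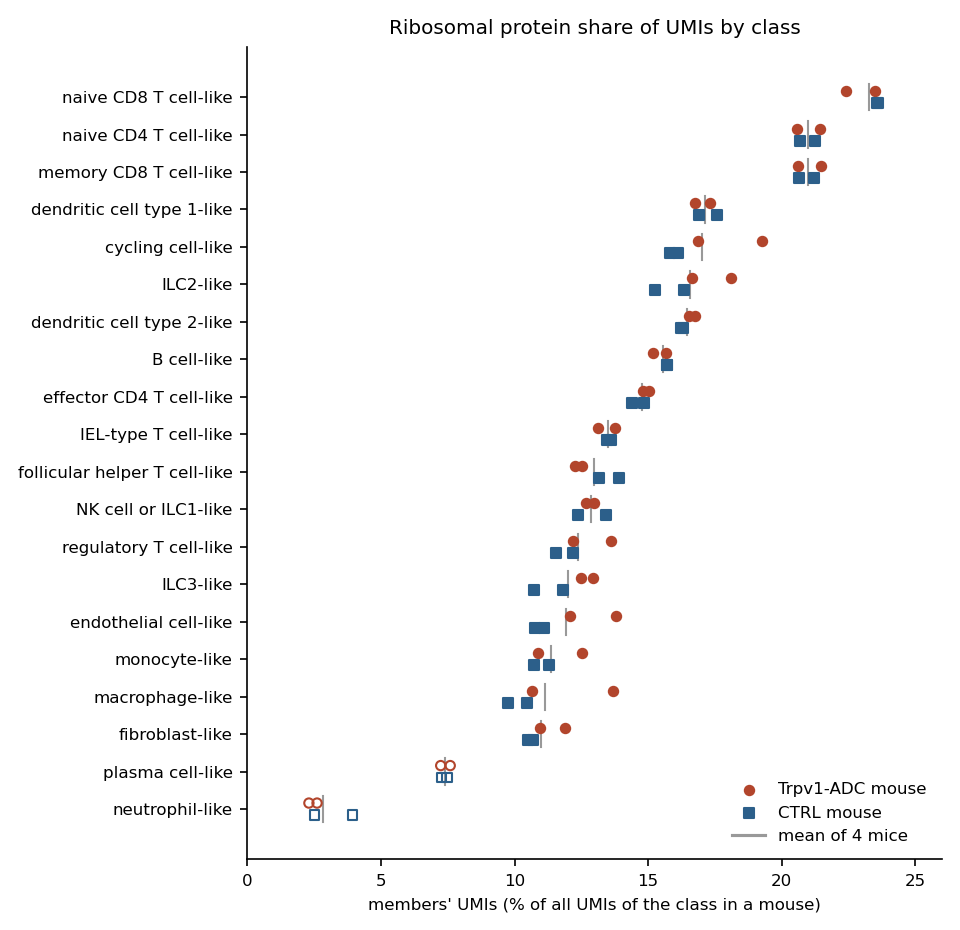
Ribosomal protein share of all UMIs (x axis, percent) by class (y axis). Each circle is a Trpv1-ADC mouse and each square a CTRL mouse, grey bars are means of 4 mice, open marks are classes with under 20 cells in a mouse, and IEL-type stands for intraepithelial-type. Naive CD8 T cell-like cells lie at 22.4% to 23.6%, above the other classes with filled marks, and neutrophil-like cells at 2.30% to 3.94%.

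Of the 7 named classes with under 20 cells in a mouse, the antibody-secreting plasma cell-like cells had 7.39% ± 0.17. Antigen receptor genes took 40.5% to 44.2% of their UMIs, and with those left out of the total the members' share was 12.2% to 13.4%. Neutrophil-like cells, short-lived phagocytes, had 2.84% ± 0.74, the lowest of all classes. Interferon-signature T cell-like cells stood at 22.3% ± 0.41, next to the naive T cells. Epithelial (14.54%), gamma delta T (13.9%), mast cell or basophil (13.7%) and migratory dendritic cell-like cells (12.9%) lay within the range of the 18.

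Most members followed a similar order of classes. Over 72 profiles (18 classes in 4 mice), the correlation of a member's log2 CPM (counts scaled to a common total in the usual way, plus 1) with the summed rest had a median of 0.91 over the 83 members, and 44 exceeded 0.9. The profiles share a run and a total, so the correlations are given as descriptions. The 5 highest were Rps7 (0.98), Rps10 (0.97), Rpl8 (0.97), Rps3a1 (0.97) and Rps16 (0.96), of which all but Rpl8 belong to the small subunit. The 5 lowest were Rps4l (-0.34), Rps27l (-0.33), Rpl7l1 (0.14), Rpl36al (0.38) and Rpl10 (0.46), and 4 of these are the second gene of a pair. By CPM, 59 members were highest in naive CD8 T cell-like cells, 7 each in conventional dendritic cell type 1-like and cycling cell-like cells. The lowest class was macrophage-like for 25 members, monocyte-like for 18, fibroblast-like for 16 and ILC3-like for 10.

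Single members with a known function showed this order with few departures. Rplp0, which anchors the stalk that recruits elongation factors, averaged 2353 ± 48.8 CPM in naive CD8 T cell-like cells and 958 ± 73.4 CPM in ILC3-like cells, its lowest class (SD, n = 4). Its stalk partner Rplp1 averaged 4703 ± 117 CPM in naive CD8 T cell-like and 1379 ± 103 CPM in monocyte-like cells, and Rplp2 averaged 2693 ± 28.2 CPM in naive CD8 T cell-like and 1196 ± 116 CPM in fibroblast-like cells. The lowest class thus differed among the 3 stalk genes while the highest was the same. Rps6, the subunit that S6 kinase phosphorylates downstream of mTORC1, had 677 ± 30.2 CPM in naive CD8 T cell-like and 272 ± 19.99 CPM in monocyte-like cells.

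Rpsa, which is also known as a laminin receptor, had 3220 ± 493 CPM in cycling cell-like cells and 3397 ± 72.0 CPM in naive CD8 T cell-like cells, and it was lowest in endothelial cell-like cells (1450 ± 340 CPM). Rps27a, made as a fusion with ubiquitin, had 3522 ± 129 CPM in conventional dendritic cell type 2-like and 3480 ± 81.6 CPM in naive CD8 T cell-like cells, with overlapping ranges. Fau, a fusion of a ubiquitin-like protein with a ribosomal protein that the naming rule does not take in, was highest in the dendritic cell classes, at 5102 ± 168 CPM in type 2-like and 5045 ± 179 CPM in type 1-like cells.

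Within the family, the share of a member among the members' UMIs was steady for most genes, with a median SD over classes of 0.16 on the log2 scale. Of the 8 that varied most, 5 are a related second copy: Rps4l, Rps27l, Rpl7l1, Rpl36al and Rps3a2. The others were Rpl12, Rpl10 and Rps27. Rpl12, a stalk-base protein of the large subunit, made up 0.836% of the members' UMIs in naive CD4 T cell-like cells and 0.276% in monocyte-like cells, where it had 312 and 356 CPM in Trpv1-ADC mice and 286 and 299 CPM in CTRL mice. All 4 mice thus had low Rpl12 in monocyte-like cells, where the mean was 5.86-fold below the mean of naive CD8 T cell-like cells. Rpl10, which joins the large subunit in a late step of its assembly, ran the other way, with 0.828% in monocyte-like and 0.404% in naive CD4 T cell-like cells. Rps27, a zinc-finger protein of the small subunit, made up 5.56% in B cell-like and 2.49% in cycling cell-like cells.

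**Figure D2:**
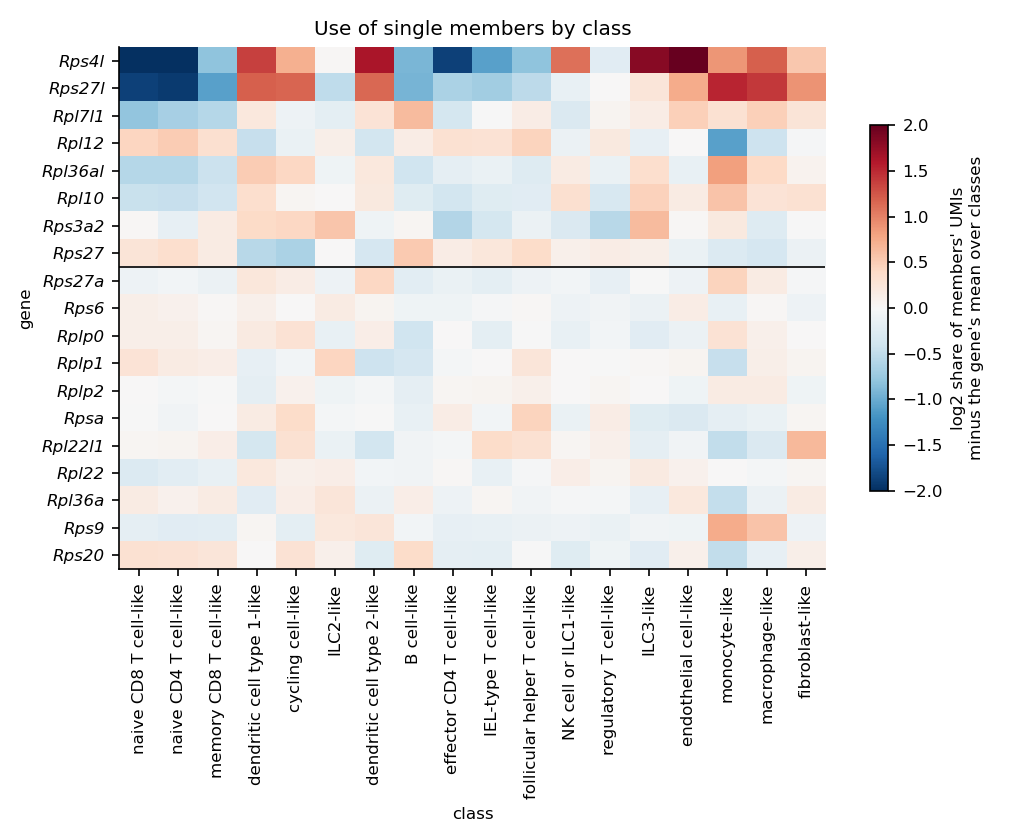
Share of single members among the members' UMIs by class, as log2 share minus the gene's own mean over the 18 classes (colour). The 8 rows above the line vary most, and the rows below it are members named for their role or as partner of a pair, with Rps9 and Rps20 added after their values were seen. Rps27l and Rps4l are low in naive T cell-like and high in dendritic, endothelial or myeloid classes, colours end at 2, Rpl12 is low in monocyte-like cells, and most other rows stay near 0.

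The pair Rps27 and Rps27l showed the clearest division by cell type. Rps27l, whose protein differs little from that of Rps27 and whose gene is a known p53 target, is set here against its partner within each class and mouse, as Rps27l UMIs per 100 Rps27 UMIs. Monocyte-like cells had 11.5 and 9.28 in Trpv1-ADC mice, against 9.11 and 9.59 in CTRL mice. Macrophage-like cells had 10.1 and 9.17 in Trpv1-ADC mice, against 8.36 and 10.6 in CTRL mice. Naive CD4 T cell-like cells had 0.567 and 0.646 in Trpv1-ADC mice, against 0.657 and 0.530 in CTRL mice. In every mouse the ratio was thus far higher in the myeloid classes than in naive CD4 T cell-like cells, and the groups overlapped in all 3 classes.

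Cycling cell-like cells had the highest mean ratio of Rps27l to Rps27 (9.94 ± 1.87 per 100), conventional dendritic cells of type 1-like and 2-like 9.55 ± 1.08 and 7.94 ± 0.85, and stromal cells about the middle, with 5.74 ± 0.31 in fibroblast-like and 5.27 ± 1.27 in endothelial cell-like cells. Lymphocytes were lower, at 3.12 ± 0.71 in ILC3-like, 2.57 ± 0.31 in regulatory T cell-like, 1.04 ± 0.15 in B cell-like and 0.654 ± 0.072 in naive CD8 T cell-like cells. In cycling cell-like cells the ratio was 8.18 and 8.52 in Trpv1-ADC mice, below the 11.9 and 11.2 of CTRL mice. That difference was not tested, and the class joins 2 clusters of dividing cells, of which the smaller also expresses the dendritic cell gene Cst3.

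Rpl36al, a close relative of Rpl36a, was highest against its partner in monocyte-like cells. Monocyte-like cells had 95.5 and 84.9 Rpl36al UMIs per 100 of Rpl36a in Trpv1-ADC mice, against 77.7 and 76.1 in CTRL mice, and naive CD8 T cell-like cells had 21.2 and 19.6 in Trpv1-ADC mice, against 20.9 and 20.6 in CTRL mice. Rpl22l1 and Rpl22, a pair studied in T cell development, split the classes otherwise, with 49.5 ± 3.63 per 100 in fibroblast-like, 46.7 ± 1.27 in intraepithelial-type T cell-like and 22.03 ± 2.50 in conventional dendritic cell type 1-like cells. Rpl7l1 ranged between 10.1 ± 0.49 per 100 Rpl7 in B cell-like and 4.15 ± 0.50 in naive CD8 T cell-like cells. Rps4l rested on few molecules. It had 48 UMIs in endothelial cell-like cells (2.47 ± 1.13 per 100 Rps4x) and 5 in naive CD8 T cell-like cells. Rpl39l was near its floor, with at most 12 UMIs in a class, and is not a member.

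**Figure D3:**
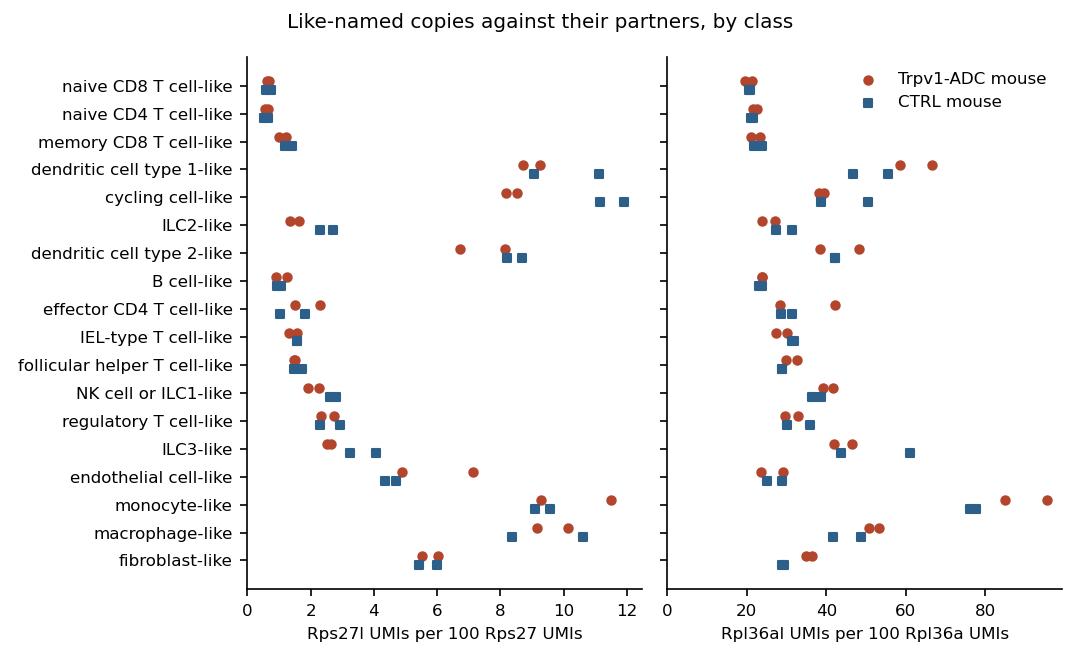
UMIs of Rps27l per 100 Rps27 (left, x axis) and of Rpl36al per 100 Rpl36a (right, x axis) by class (y axis, in the order of the ribosomal protein share). Circles are Trpv1-ADC mice and squares CTRL mice. Monocyte-like cells lie at 9.11 to 11.5 on the left and 76.1 to 95.5 on the right, and naive CD8 T cell-like cells at 0.592 to 0.750 and 19.6 to 21.2.

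The other genes of the translation machinery were read by list across the 18 classes, as the list's share of the UMIs set against the members' share. Translation factors and other mRNAs with a 5′ terminal oligopyrimidine tract, such as Eef1a1, Tpt1 and Pabpc1, followed the members most closely (r = 0.93 over the 18 class means). They took 2.44% ± 0.048 of the UMIs in naive CD8 T cell-like and 1.44% ± 0.032 in fibroblast-like cells. Ribosome biogenesis genes, such as Fbl, Ncl and Nop56 of the nucleolus, came next (r = 0.79), but their highest class was cycling cell-like (0.233% ± 0.013) and their lowest monocyte-like (0.118% ± 0.0026). Ribosome quality control genes had r = 0.53 and the mTORC1 regulators r = 0.17. Mitochondrial ribosomal proteins did not follow the cytosolic ones (r = -0.16). They were highest in cycling cell-like cells at 0.493% ± 0.039 and lowest in naive CD4 T cell-like cells, at 0.221% ± 0.0063. The heat shock and dissociation list ran against the members (r = -0.74), with 2.65% ± 0.39 in intraepithelial-type T cell-like and 0.869% ± 0.26 in naive CD8 T cell-like cells. Mitochondrially encoded genes (r = -0.25) and the nuclear RNAs Malat1 and Neat1 (r = -0.37) showed weaker relations. These are correlations of class means from the same cells and totals and carry no test.

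Over all cells of a mouse, the members held 16.7% and 17.5% of the UMIs in Trpv1-ADC mice, against 15.5% and 15.4% in CTRL mice. The groups did not overlap, and the difference of 1.62 percentage points had the smallest p that 2 mice against 2 can give (exact permutation test, two-sided, p = 0.33). The mix of cells differed too. Naive CD8 T cell-like cells, the class with the highest share, numbered 654 and 890 in Trpv1-ADC mice and 475 and 348 in CTRL mice, and intraepithelial-type T cell-like cells, with a low share, 278 and 211 in Trpv1-ADC mice and 443 and 583 in CTRL mice. When each of the 18 classes was given the same weight in every mouse, namely its mean share of the cells, the members stood at 16.8% and 17.0% in Trpv1-ADC mice and 16.8% and 16.8% in CTRL mice. The groups then overlapped, and the difference was 0.077 percentage points (exact permutation test, two-sided, p = 1). With the 18 classes weighted equally instead it was 0.559, where Trpv1-ADC mice had 15.01% and 15.8% and CTRL mice 14.8% and 14.8%. In such sums, a change in the number of cells of a class and a change in RNA per cell both move the value, and the sum over all cells cannot tell them apart.

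**Figure D4:**
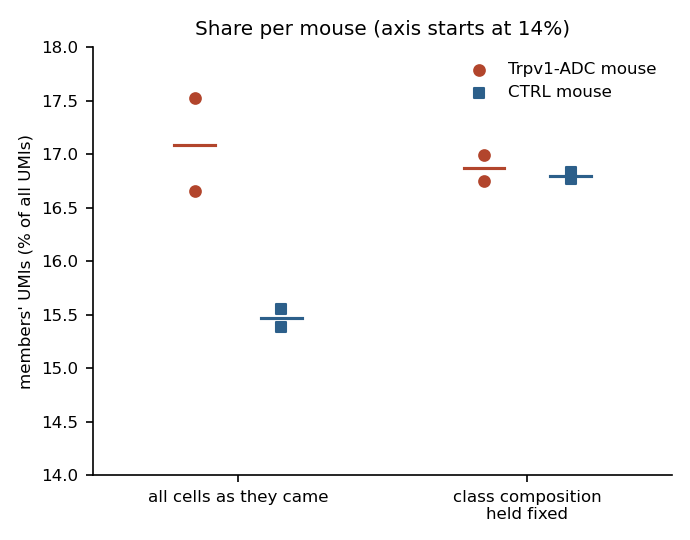
Members' share of all UMIs per mouse (y axis, percent, starting at 14), over all cells as they came and with the class composition held fixed. Circles are Trpv1-ADC mice, squares CTRL mice and short bars group means. The groups are 1.62 percentage points apart on the left and 0.077 on the right.

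Within classes, no member passed the test between the groups. edgeR's quasi-likelihood test on UMIs summed per mouse and class called 0 of 1468 tests of members at an adjusted p under 0.05 (adjusted over all genes of the class), while it called 0.78% of the 149272 tests of all genes in the 18 classes. The smallest adjusted p of a member was 0.230, for Rpl10 in intraepithelial-type T cell-like cells, and 59 tests of members (4.02%) had an unadjusted p under 0.05, against 9.54% over all genes. DESeq2 called 0 members as well. The filter on low counts passed 81 of the 83 members in every class. Rps3a2 passed in 7 classes and Rps4l in 3. The share of all genes called was 8.09% in intraepithelial-type T cell-like, 1.17% in conventional dendritic cell type 1-like, 0.623% in monocyte-like, 0.562% in ILC3-like and 0.458% in macrophage-like cells. It was 0.259% in regulatory T cell-like, 0.254% in effector CD4 T cell-like, 0.224% in NK cell or ILC1-like, 0.131% in memory CD8 T cell-like, 0.127% in conventional dendritic cell type 2-like, 0.123% in B cell-like, 0.122% in ILC2-like, 0.122% in naive CD8 T cell-like and 0.118% in naive CD4 T cell-like cells. In cycling cell-like cells it was 0.0492%, in fibroblast-like 0.0186%, in follicular helper CD4 T cell-like 0.0105% and in endothelial cell-like cells 0%. The members' 0 calls therefore stand against a background that was near 0 in most classes.

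The median log2 fold change of the members, Trpv1-ADC over CTRL, lay between -0.15 and 0.29 in the 18 classes, positive in 11 and negative in 7. In the classes at either end nearly all members had the same sign. Members of a class share their cells and totals, so a count over members is not a count of independent results.

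**Figure D5:**
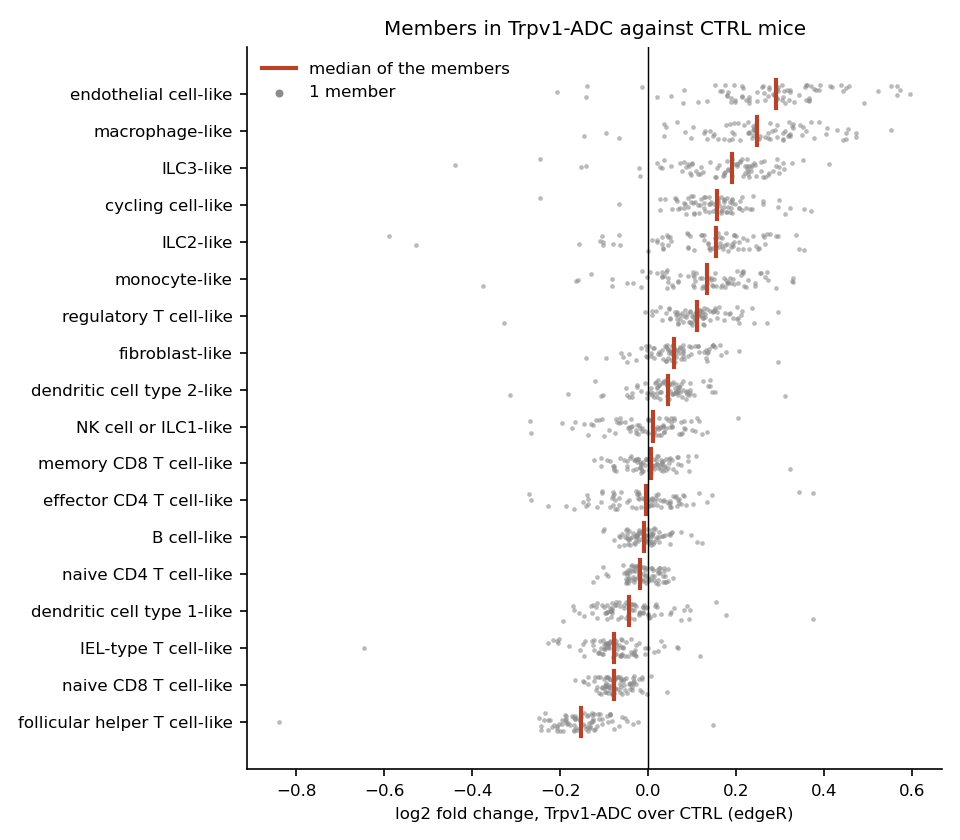
log2 fold change of each member (x axis, edgeR, Trpv1-ADC over CTRL) in the 18 classes (y axis, ordered by median; IEL-type stands for intraepithelial-type). Grey points are members and bars their medians, which run from 0.29 in endothelial cell-like to -0.15 in follicular helper T cell-like cells. No point passed the test.

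Follicular helper CD4 T cell-like cells, which help B cells in germinal centres, had the lowest median (-0.15) and kept its sign when each mouse was left out (-0.12 to -0.18). The members took 12.3% and 12.5% of the UMIs in Trpv1-ADC mice, against 13.9% and 13.2% in CTRL mice, a difference of -1.13 percentage points (exact permutation test, two-sided, p = 0.33). The log2 fold change was negative for 81 of 82 tested members, and 72 had both Trpv1-ADC mice below both CTRL mice, as did 18.7% of all tested genes. Rps24, a small subunit protein mutated in some people with Diamond-Blackfan anaemia, had 3879 and 3838 normalised CPM in Trpv1-ADC mice and 4780 and 4367 in CTRL mice, a log2 fold change of -0.24 ± 0.080 (SE) with an adjusted p of 0.577. The stalk gene Rplp1 had 2413 and 2343 normalised CPM in Trpv1-ADC mice and 2789 and 2812 in CTRL mice (-0.24 ± 0.082, adjusted p = 0.606). CTRL 1 held 95 cells of this class, against 294 to 401 in the other mice. Without CTRL 2, edgeR called Rps24 (adjusted p = 0.0263), but CTRL 1 was then the only CTRL mouse, and the spread between mice came from the 2 Trpv1-ADC mice alone. The heat shock and dissociation list was apart in this class too, at 1.21% and 1.55% of the UMIs in Trpv1-ADC mice and 0.757% and 1.07% in CTRL mice, with 0 of its 18 genes called and a median log2 fold change of 0.58. Its part in the result was not tested.

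Naive CD8 T cell-like cells had a median of -0.08, with 80 of 82 members negative. Both Trpv1-ADC mice lay below both CTRL mice for 42 members, and for 1958 of 10633 tested genes. The members' share was 23.5% and 22.4% in Trpv1-ADC mice and 23.6% and 23.6% in CTRL mice. Trpv1-ADC 1 lay just below CTRL 1 and Trpv1-ADC 2 further down, and without Trpv1-ADC 2 the median was -0.02. With cells thinned to 2000 UMIs the groups overlapped, at 23.4% and 22.2% in Trpv1-ADC mice and 23.3% and 23.7% in CTRL mice. The heat shock and dissociation list took 0.884% and 1.21% of the UMIs in Trpv1-ADC mice and 0.589% and 0.794% in CTRL mice, with 0 of 18 genes called and a median log2 fold change of 0.66, and its part in the members' values was not tested.

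In intraepithelial-type T cell-like cells the median was -0.08 as well, with 74 of 82 members negative. In normalised CPM, 64 had both Trpv1-ADC mice below both CTRL mice, as did 2798 of 10343 tested genes. The members' share of UMIs nevertheless overlapped, at 13.1% and 13.8% in Trpv1-ADC mice and 13.4% and 13.6% in CTRL mice. Rpl10 had 607 and 580 normalised CPM in Trpv1-ADC mice and 668 and 721 in CTRL mice (-0.23 ± 0.109, adjusted p = 0.230). Rpl3, a protein of the large subunit, had 925 and 985 in Trpv1-ADC mice and 1100 and 1104 in CTRL mice (-0.21 ± 0.099, adjusted p = 0.231). Of the 18 heat shock and dissociation genes, 3 were called higher, against 8.09% of all genes called in this class. The list's median log2 fold change was 0.03. The list took 3.23% and 2.49% of the UMIs in Trpv1-ADC mice and 2.39% and 2.48% in CTRL mice, with Trpv1-ADC 2 just above CTRL 2. Its part in the members' values was not tested.

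Endothelial cell-like cells had the highest median (0.29), and 25 of the 59 unadjusted p-values of members under 0.05 fell in this class. By the same edgeR test, 454 of all 5735 genes of the class had an unadjusted p under 0.05. The members took 12.1% and 13.8% of the UMIs in Trpv1-ADC mice, against 10.8% and 11.1% in CTRL mice. Of 82 members, 78 were positive and 69 had both Trpv1-ADC mice above both CTRL mice, against 19.7% of all genes. Rpl36a had 1122 and 1190 normalised CPM in Trpv1-ADC mice and 760 and 803 in CTRL mice (0.57 ± 0.156, adjusted p = 0.515). The class rests on 25 to 38 cells per mouse and joins 2 clusters, the larger led by Fabp4 and Plvap and the smaller, with 4 to 12 cells per mouse, by Ccl21a and Mmrn1. The separation did not hold with other weights for the cells. As a mean over cells, the share was 9.73% and 12.9% in Trpv1-ADC mice and 8.86% and 11.6% in CTRL mice, and with cells thinned to 2000 UMIs it was 10.7% and 12.8% in Trpv1-ADC mice and 9.22% and 11.2% in CTRL mice, with overlap in both. In the larger cluster the share of summed UMIs was 12.3% and 13.7% in Trpv1-ADC mice and 11.3% and 10.9% in CTRL mice. The heat shock and dissociation list overlapped here, at 1.95% and 2.43% of the UMIs in Trpv1-ADC mice and 2.50% and 2.29% in CTRL mice.

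Macrophage-like cells, the phagocytes marked by C1qa, C1qb and C1qc, had a median of 0.25, with 78 of 81 members positive. The members held 10.6% and 13.7% of the UMIs in Trpv1-ADC mice, against 9.75% and 10.5% in CTRL mice, and 24 members had both groups apart in that direction, against 21.9% of all genes. The result rests on Trpv1-ADC 2, without which the median was 0.04, while without Trpv1-ADC 1 it was 0.43. Rpl5, which carries the 5S RNA into the large subunit and can bind Mdm2, had 320 and 377 normalised CPM in Trpv1-ADC mice and 243 and 270 in CTRL mice (0.44 ± 0.194, adjusted p = 0.367). Macrophage-like cells of Trpv1-ADC 2 had a median of 8953.5 UMIs per cell, against 5192 to 6699 in the other 3 mice, and deep cells weigh more in a share of summed UMIs. Cells of at least 2000 UMIs were also thinned to 2000 and counted equally, with the others left out. The share was then 9.97% and 12.4% in Trpv1-ADC mice and 8.33% and 10.1% in CTRL mice. The groups overlapped (exact permutation test, two-sided, p = 0.667), and the part of the cells left out was not tested. Here the heat shock and dissociation list overlapped, at 2.58% and 1.98% of the UMIs in Trpv1-ADC mice and 2.00% and 2.04% in CTRL mice.

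The clusters that make up this class were unevenly spread. The cluster led by Saa3 held 36 and 10 cells in Trpv1-ADC mice and 120 and 58 in CTRL mice, with a share of 9.26% and 8.91% in Trpv1-ADC mice and 7.88% and 9.49% in CTRL mice. The cluster led by Lyz2 and Apoe held 57 and 54 cells in Trpv1-ADC mice and 10 and 6 in CTRL mice, with 10.7% and 11.9% in Trpv1-ADC mice and 7.34% and 7.77% in CTRL mice. The Lyz2 cluster was thus the largest of the class in both Trpv1-ADC mice and the Saa3 cluster in both CTRL mice. Another cluster, led by Ccl8 and Apoe, of 7 to 31 cells per mouse with a median of 1730 UMIs, had 22.4% and 18.6% in Trpv1-ADC mice and 19.3% and 17.0% in CTRL mice. Most cells of that cluster, at under 2000 UMIs, are thus not in the thinned values.

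In ILC3-like cells, innate lymphocytes whose leading gene here was Il22, the share was 12.9% and 12.5% in Trpv1-ADC mice and 10.7% and 11.8% in CTRL mice. The median log2 fold change was 0.19, with 75 of 81 members positive and 51 apart, against 20.5% of all genes, and it stayed positive without any 1 mouse (0.11 to 0.27). Rpl10a had 617 and 720 normalised CPM in Trpv1-ADC mice and 475 and 532 in CTRL mice (0.41 ± 0.151, adjusted p = 0.321). Rps19, also mutated in people with that anaemia, had 2003 and 1875 in Trpv1-ADC mice and 1442 and 1595 in CTRL mice (0.35 ± 0.132, adjusted p = 0.342). The heat shock and dissociation list also moved in these cells, at 3.33% and 2.63% of the UMIs in Trpv1-ADC mice and 1.63% and 1.92% in CTRL mice, with 6 of its 18 genes called higher. Its part in the result was not tested.

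Regulatory T cell-like cells, named from Foxp3, Ctla4 and Il10, had a median of 0.11. The members held 12.2% and 13.6% of the UMIs in Trpv1-ADC mice, against 12.2% and 11.5% in CTRL mice. The groups overlapped, with CTRL 1 above Trpv1-ADC 1, and the difference was 1.04 percentage points (exact permutation test, two-sided, p = 0.667). Of 81 members, 79 were positive and 29 apart, against 19.6% of all genes. Rpl5 had 399 and 420 normalised CPM in Trpv1-ADC mice and 353 and 315 in CTRL mice (0.30 ± 0.102, adjusted p = 0.327). Rpl31 had 369 and 405 in Trpv1-ADC mice and 340 and 303 in CTRL mice (0.27 ± 0.104, adjusted p = 0.414). Without Trpv1-ADC 2 the median was 0.02, and without Trpv1-ADC 1 it was 0.20. edgeR then called Rpl12, Rplp0, Rpl32 and Rps2, with Trpv1-ADC 2 as the only Trpv1-ADC mouse and the spread between mice taken from the 2 CTRL mice alone. Heat shock and dissociation genes stood at 1.33% and 1.46% of the UMIs in Trpv1-ADC mice and 1.12% and 1.325% in CTRL mice, with 1 of 18 genes called, lower, and their part in the members' values was not tested.

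The 2 clusters of regulatory T cells stood apart in level in all 4 mice. The Il10-rich cluster had 11.0% and 12.3% in Trpv1-ADC mice and 10.8% and 10.5% in CTRL mice. The cluster led by Lrrc32 and Ikzf2 had 14.53% and 15.4% in Trpv1-ADC mice and 14.46% and 14.1% in CTRL mice. In both, the Trpv1-ADC mice lay above the CTRL mice, by 0.988 and 0.697 percentage points.

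Cycling cell-like cells held 16.9% and 19.2% in Trpv1-ADC mice and 15.8% and 16.1% in CTRL mice. Their median was 0.16, with 80 of 82 members positive and 41 apart, against 19.8% of all genes. Rpsa had 3605 and 3834 normalised CPM in Trpv1-ADC mice and 2836 and 2983 in CTRL mice (0.35 ± 0.118, adjusted p = 0.377). Genes of the heat shock and dissociation list were apart here as well, at 1.25% and 1.17% of the UMIs in Trpv1-ADC mice and 0.991% and 0.999% in CTRL mice, with 1 of 18 genes called higher, and their part in the result was not tested. In the larger cluster of this class, the Trpv1-ADC mice lay above the CTRL mice in the members' share, by 2.62 percentage points. The smaller cluster overlapped, at 15.1% and 16.3% in Trpv1-ADC mice and 15.5% and 16.2% in CTRL mice, a difference of -0.181. It held 6 and 8 cells in Trpv1-ADC mice and 13 and 18 in CTRL mice. The part of this uneven spread in the class difference was not tested.

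ILC2-like cells, innate lymphocytes led here by Gata3 and Il17rb, held 16.6% and 18.1% in Trpv1-ADC mice and 16.3% and 15.2% in CTRL mice, with a median of 0.15, 71 of 81 members positive and 42 apart, against 19.7% of all genes. Rps9 had 3500 and 3766 normalised CPM in Trpv1-ADC mice and 2841 and 2840 in CTRL mice (0.35 ± 0.123, adjusted p = 0.456). Without Trpv1-ADC 2 the median was 0.04 in cycling and in ILC2-like cells.

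Monocyte-like cells overlapped in share, at 10.9% and 12.5% in Trpv1-ADC mice and 11.3% and 10.7% in CTRL mice. Their median was 0.13, with 70 of 81 members positive and 23 apart, against 20.4% of all genes, and -0.01 without Trpv1-ADC 2. Among the 11 negative members, Rpl23a had 467 and 442 normalised CPM in Trpv1-ADC mice and 593 and 589 in CTRL mice (-0.38 ± 0.173, adjusted p = 0.472). In these cells the heat shock and dissociation list had 10 of 18 genes called higher, and it took 2.29% and 2.55% of the UMIs in Trpv1-ADC mice and 1.28% and 1.39% in CTRL mice. Its part in the members' values was not tested.

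In the remaining classes the medians were small. They were 0.06 in fibroblast-like, 0.04 in conventional dendritic cell type 2-like, 0.01 in NK cell or ILC1-like and 0.01 in memory CD8 T cell-like cells, and -0.01 in effector CD4 T cell-like, -0.01 in B cell-like, -0.02 in naive CD4 T cell-like and -0.04 in conventional dendritic cell type 1-like cells. The fibroblast-like share was 10.9% and 11.9% in Trpv1-ADC mice and 10.5% and 10.7% in CTRL mice, and its 2 clusters had different medians, with a median log2 fold change of 0.27 in the cluster led by Ces1d and Gsn and -0.08 in that led by Adamdec1 and Postn. B cell-like cells, at 15.2% and 15.7% in Trpv1-ADC mice and 15.7% and 15.7% in CTRL mice, had log2 fold changes of members between -0.10 and 0.12. Their heat shock and dissociation list took 1.43% and 2.00% of the UMIs in Trpv1-ADC mice and 0.649% and 0.957% in CTRL mice. The list's median log2 fold change was 1.13, with 0 of 18 genes called, and its part in the members' values was not tested.

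By class, 7 of the 18 had both Trpv1-ADC mice above both CTRL mice in the members' share, 3 had both below and 8 overlapped. Each class apart had p = 0.33 (exact permutation test, two-sided), or 0.6 after Benjamini-Hochberg adjustment over the 18. The largest differences were 2.08 percentage points in cycling cell-like, 2.04 in macrophage-like and 2.01 in endothelial cell-like cells.

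Which classes stood apart depended on the weight of each cell and on which cells were counted. Thinning to 2000 UMIs leaves a cell's expected share as it is, so it cannot show an effect of depth. The thinned value counts cells equally and leaves out those under 2000 UMIs. With cells thinned to 2000 UMIs, 5 of the 10 classes stayed apart on the same side, namely cycling, ILC3, conventional dendritic cell type 2, B and follicular helper CD4 T cell-like cells. The macrophage, endothelial, ILC2, fibroblast and naive CD8 T cell-like classes overlapped, and regulatory T, monocyte and effector CD4 T cell-like cells came apart, with the Trpv1-ADC mice above. As a mean over cells, 6 of the 10 stayed apart, and ILC3-like, macrophage-like, endothelial cell-like and naive CD8 T cell-like cells overlapped.

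Of the members named for their role and Fau, Rpsa was positive in 14 of the 18 classes, Rplp2 and Fau in 12, Rplp0 and Rps27a in 11, Rps6 in 10 and Rplp1 in 9, and none of these passed the test in any class. Of the other lists, heat shock and dissociation genes were called most often, with 39 higher and 2 lower in 324 tests, and in 13 of the 18 classes both Trpv1-ADC mice lay above both CTRL mice in the list's share of UMIs, while the other 5 overlapped. Translation factors and similar mRNAs had 0 higher and 3 lower in 432 tests, namely Gas5 and Npm1 in intraepithelial-type T cell-like cells and Vim in regulatory T cell-like cells. Ribosome biogenesis genes had 1 higher and 3 lower in 468, all in intraepithelial-type T cell-like cells, where Myc, which drives ribosome production, was higher, the nucleolar genes Ncl, Nop56 and Utp20 were lower, and the list's median log2 fold change was -0.31. In intraepithelial-type T cell-like cells 8.09% of all genes were called, so that 2 of 24 translation factor genes, 4 of 30 biogenesis genes and 1 of 18 mTORC1 regulators stand against that share. The mTORC1 regulators had 1 called higher in 281 tests, the stress-induced inhibitor Ddit4 in intraepithelial-type T cell-like cells. Ribosome quality control genes had 0 calls in 203 tests, mitochondrial ribosomal proteins 2 lower in 1202 and mitochondrially encoded genes 1 higher in 453. Of the nuclear RNAs, Malat1 was lower in effector CD4 T cell-like cells, the 1 call in 36 tests.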

How the data were processed

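Single-cell RNA was read from CD45+ cecum cells of 2 Trpv1-ADC and 2 CTRL mice in 1 hashed 10x run. The deposited gene and hashtag matrices hold raw UMI counts, made by the authors with Cell Ranger, with Seurat also named and mm10 as build, per the submitters' processing notes. The labels name the chemistry as 5′ v3 in one place and 3′ v3 in another, which was not settled here. In the pairs, the UMIs of 1 gene were set against those of another, and these ratios were compared between classes and mice. How well each gene of a pair is captured was not tested.

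Cells had at least 500 UMIs, 200 genes and at most 10% mitochondrial UMIs. A cell went to the mouse of its top tag (at least 10 counts and 3 times the next), and Scrublet doublets (expected rate 0.2, threshold 0.375, 3411 called) were left out. Clusters (scanpy 1.11.5, 2000 variable genes without the members, 30 components, 15 neighbours, Leiden resolution 1, seed 0) were named from listed markers, and 3 stayed unnamed and out of comparisons. UMIs were summed per mouse and class with at least 20 cells in each mouse and tested with edgeR 4.0.16 (filterByExpr, TMM, robust quasi-likelihood fit, R 4.3.3), with Benjamini-Hochberg adjustment over all genes of a class and calls at an adjusted p under 0.05. Shares were compared by exact permutation tests over mice, which cannot go below p = 0.33 here. The labels give 1 hashtag per mouse, so p-values measure the spread between mice. Scripts were tested on simulated data.

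Genes named are the stalk genes, Rpsa, Rps6, Rps27a, Fau and the copy pairs; the 8 members whose share varied most between classes; the 5 most and least like the summed family; and those with the smallest p per class. Some genes that this rule takes in are not reported here. The members and lists were chosen with earlier results of these data known. Alternatives were DESeq2 1.42.0, other normalizations and filters, other hashtag, doublet and clustering choices, a replicate block and leaving out each mouse. Promoters came from a RefSeq table of GRCm38.p6.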

Additional observations from a re-analysis of the deposited data

Results flagged for a closer look

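In 10 classes, every Trpv1-ADC mouse lay on one side of every CTRL mouse in the members' share of UMIs, and the side was not the same in all of them. The Trpv1-ADC minus CTRL difference was 2.08 percentage points in cycling cell-like, 2.04 in macrophage-like, 2.01 in endothelial cell-like, 1.58 in ILC2-like, 1.44 in ILC3-like, 0.82 in fibroblast-like and 0.364 in conventional dendritic cell type 2-like cells. It was -1.13 in follicular helper CD4 T cell-like, -0.639 in naive CD8 T cell-like and -0.272 in B cell-like cells. The difference between classes was not tested. With cells thinned to 2000 UMIs, 5 of the 10 were still apart, and the macrophage, endothelial, ILC2, fibroblast and naive CD8 T cell-like classes overlapped.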

How the results depend on the processing

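The count of members called was 0 higher and 0 lower under DESeq2, every other normalization and filter run and every other cell or cluster choice. With each mouse left out in turn it was 0 to 4 higher and 0 to 2 lower, in fits where 1 group is a single mouse that is assumed to vary like the mice of the other group. The 4 came without Trpv1-ADC 1, in regulatory T cell-like cells, and lower calls came for Rpl9 and Rpl10 without Trpv1-ADC 1 and for Rpl3 and Rps2 without Trpv1-ADC 2 in intraepithelial-type T cell-like cells, and for Rps24 without CTRL 2 in follicular helper CD4 T cell-like cells. Over all genes, mice of the same number did not deviate together (r of their deviations -0.094 to 0.06 in the 18 classes). Over the members alone, r ran in both directions, from -0.46 in endothelial cell-like to 0.51 in memory CD8 T cell-like cells. The numbers were not taken to pair the mice. With the replicate block edgeR called 1 member higher, Rpsa in endothelial cell-like cells.

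Classes come apart more easily when 1 group is a single mouse. With each mouse left out, 7 to 11 were above and 4 to 6 below. Classes with the groups apart numbered 4 above and 1 below when doublets were removed by tags alone. They numbered 6 above and 2 below with cells thinned to 2000 UMIs, which left out 72 and 51 cells of the Trpv1-ADC mice and 116 and 78 of the CTRL mice, and 7 above and 2 below as a mean over cells, but not always in the same classes. At fixed composition the difference was 0.559 percentage points with classes weighted equally and -0.0442 to 0.198 with each mouse left out. Over all cells with no weights, where composition is not held fixed, it was 1.62. For Rps29, memory CD8 T cell-like cells had a log2 fold change of 0.07 that turned to -0.0578 at Leiden resolution 2, and the cause was not tested. With cells thinned to 2000 UMIs, chosen after seeing the data, the highest and lowest class differed by 12.94 percentage points, and the lowest class was macrophage-like. Few cells limit the endothelial, monocyte, conventional dendritic cell type 1, cycling and ILC2-like classes. In the mouse with fewest they held 25, 33, 34, 37 and 41 cells.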
